A study of Mus musculus with 22 samples.

Results

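The 10 genes described here encode parts of the inflammasome and of the pyroptosis machinery in mouse small intestine: the sensors Nlrc4 and Aim2, the adaptor Pycard, the caspases Casp1 and Casp4, the gasdermins Gsdmd, Gsdmc2, Gsdmc3 and Gsdmc4, and the cytokine Il18. They were chosen by name, matched by Ensembl identifier to 10 of the 54838 genes of the count table, and all 10 passed the filter on low counts that left 16389 genes for testing. The mice were female FVB/N animals of 8 to 14 weeks, from crosses of heterozygotes kept in a conventional animal house. GRWT mice carry the wild-type glucocorticoid receptor and GRDim mice carry, in all their cells, a point-mutant receptor that dimerises poorly, so no result below is specific to the receptor of 1 cell type. Both genotypes drank normal water or 25 mM ZnSO4 for 7 days, and total RNA of 22 libraries was sequenced. By label, 12 libraries are ileum and 10 are IEC, for intestinal epithelial cells, which were taken as a lysate of the inner side of the distal ileum.

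The libraries fell into 12 muscle-rich and 10 muscle-poor ones, split at 100 CPM (counts scaled to the library size) of the smooth muscle gene Myh11, a split seen in the data that the tissue labels do not follow. The summed CPM of smooth muscle markers ran from 1578 to 2564 in the first class and from 197 to 331 in the second, and that of epithelial markers from 16272 to 20534 and from 25117 to 29672. Of the libraries labelled IEC, 7 of 10 were muscle-rich. The muscle-rich class held 3 libraries of each condition, and the muscle-poor class 2 of each GRWT condition and 3 of each GRDim condition. Within a class, the GRDim libraries on water and on zinc carry opposite labels, so that label and zinc cannot be told apart there: the muscle-rich ones are IEC on water and ileum on zinc, and the muscle-poor ones are ileum on water and IEC on zinc. The GRWT libraries of the muscle-rich class are 1 ileum and 2 IEC in each condition, and those of the muscle-poor class are all ileum. Whether tissue labels were exchanged was not tested. Dexamethasone, a treatment that the design text of the series also lists, is on no sample's label. Depth was even, at 13149951 to 15620744 counts a library, where 3 counts correspond to 0.192 to 0.228 CPM. One muscle-poor library, GRWT zinc ileum replicate 3, stood apart: its level of the ileal bile acid-binding gene Fabp6 was 18.2 CPM against 3967 to 11561 CPM in the other libraries, and that of the ileal bile acid transporter gene Slc10a2 5.96 CPM against 767 to 1769 CPM. Values without it are given beside the results that rest on it. Without it the muscle-poor GRWT zinc group is 1 library, which is then assumed to vary like the others. P-values measure the spread between these libraries.

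Inflammasomes are protein platforms that assemble when a cytosolic sensor meets microbial or misplaced material. NLRC4, with NAIP proteins, responds to bacterial flagellin and secretion system parts, and AIM2 binds double-stranded DNA in the cytosol. PYCARD, also named ASC, links sensors to caspase-1, which matures interleukin-18 and interleukin-1 beta and cleaves gasdermin D into a pore-forming fragment. Caspase-4, the mouse protein also called caspase-11, is activated by lipopolysaccharide inside the cell and cleaves gasdermin D as well. In the gut, NAIP and NLRC4 act in enterocytes, which are then expelled into the lumen, and interleukin-18 is made by the epithelium itself. Genes of the gasdermin C family are expressed in intestinal epithelium and are known to rise in type 2 immune responses such as those to worms.

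The members lie on 5 chromosomes (GRCm38, which is mm10, with GENCODE vM21 annotation). Nlrc4 (ENSMUSG00000039193) spans chr17:74425438-74459142 on the minus strand, Aim2 (ENSMUSG00000037860) chr1:173350879-173466040 on the plus strand, and Pycard (ENSMUSG00000030793) chr7:127989708-127993867 on the minus strand. Casp1 (ENSMUSG00000025888, chr9:5298517-5307265) and Casp4 (ENSMUSG00000033538, chr9:5308828-5336783) are neighbours on the plus strand with 1562 bases between them. Il18 (ENSMUSG00000039217) is on the same chromosome at chr9:50554827-50581840, plus strand. Gsdmd (ENSMUSG00000022575) lies at chr15:75862327-75867408 on the plus strand. Gsdmc2 (ENSMUSG00000056293, chr15:63824346-63845177), Gsdmc3 (ENSMUSG00000055827, chr15:63857724-63878558) and Gsdmc4 (ENSMUSG00000055748, chr15:63891264-63912297) form a cluster on the minus strand.

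The 3 gasdermin C genes are near copies, which bears on how far their counts can be told apart, since reads that map to several places were not counted. Their coding sequences are 1443 bases long each, and identity was 97.09% between Gsdmc2 and Gsdmc3, 93.53% between Gsdmc2 and Gsdmc4 and 93.46% between Gsdmc3 and Gsdmc4. Of all stretches of 50 bases in their exons, 51.34% in Gsdmc2, 46.03% in Gsdmc3 and 39.0% in Gsdmc4 also occur in another gene, and these were the other members of the family. The longest run that is identical in all 3 coding sequences is 171 bases, and its first 120 bases (coding positions 519 to 638) are shown because no read inside them can be assigned to 1 gene.
Gsdmc2, Gsdmc3 and Gsdmc4, shared: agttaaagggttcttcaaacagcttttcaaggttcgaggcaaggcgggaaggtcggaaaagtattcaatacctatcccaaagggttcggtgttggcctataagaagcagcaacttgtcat

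The window of 60 coding bases in which the 3 genes differ most is shown because reads over it do tell them apart. The 16 positions at which they are not all alike are in capitals. It spans exons 10 and 11 of Gsdmc2 (chr15:63826884-63827775), exons 9 and 10 of Gsdmc3 (chr15:63860314-63861195) and exons 8 and 9 of Gsdmc4 (chr15:63893831-63894684), all read on the minus strand.
Gsdmc2: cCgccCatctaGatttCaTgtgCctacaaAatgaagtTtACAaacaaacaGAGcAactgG
Gsdmc3: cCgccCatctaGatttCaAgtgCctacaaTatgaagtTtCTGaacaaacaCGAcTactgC
Gsdmc4: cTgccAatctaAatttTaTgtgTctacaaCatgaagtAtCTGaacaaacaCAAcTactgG
The levels of each of these 3 genes below are therefore those of its unshared part, and their split is uncertain. The family's namesake Gsdmc was at or under 0.0786 CPM in every library. Of the other members, Pycard shares 11.68% of its 50-base stretches, with Gm45205 on the opposite strand and with Mvp, and the remaining 6 share at most 1.09%.

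Per kilobase of exon, Casp1 was the most abundant member and Gsdmc3 the least. In the muscle-rich libraries the median levels in CPM per kilobase were 173 for Casp1, 81.1 for Gsdmd, 40.02 for Pycard, 30.2 for Il18, 23.4 for Nlrc4, 20.5 for Gsdmc4, 14.1 for Casp4, 11.4 for Gsdmc2, 9.59 for Aim2 and 2.89 for Gsdmc3. In the muscle-poor ones, which hold more epithelium, the order was the same down to Pycard, at 219 for Casp1, 139 for Gsdmd and 66.7 for Pycard, and Il18 and Nlrc4 stood side by side at 29.7 and 29.0. In GRWT mice on water, mean CPM in muscle-poor against muscle-rich libraries differed most for Casp4, at a ratio of 2.39, and for Gsdmc3, Gsdmc2 and Gsdmc4, at 2.12, 2.03 and 1.87. That ratio was 1.84 for Gsdmd, 1.69 for Casp1, 1.63 for Pycard, 1.21 for Nlrc4, 1.10 for Aim2 and 0.686 for Il18. In GRDim mice on water the same ratio was 0.920 for Casp4, 0.752 for Gsdmc3, 0.814 for Gsdmc2, 0.810 for Gsdmc4, 1.18 for Casp1 and 1.44 for Il18. The members' pattern over the classes thus had another order in each genotype, and the comparisons below keep the classes apart. In bulk tissue, fewer cells of a type and less RNA per cell cannot be told apart.

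**Figure D1:**
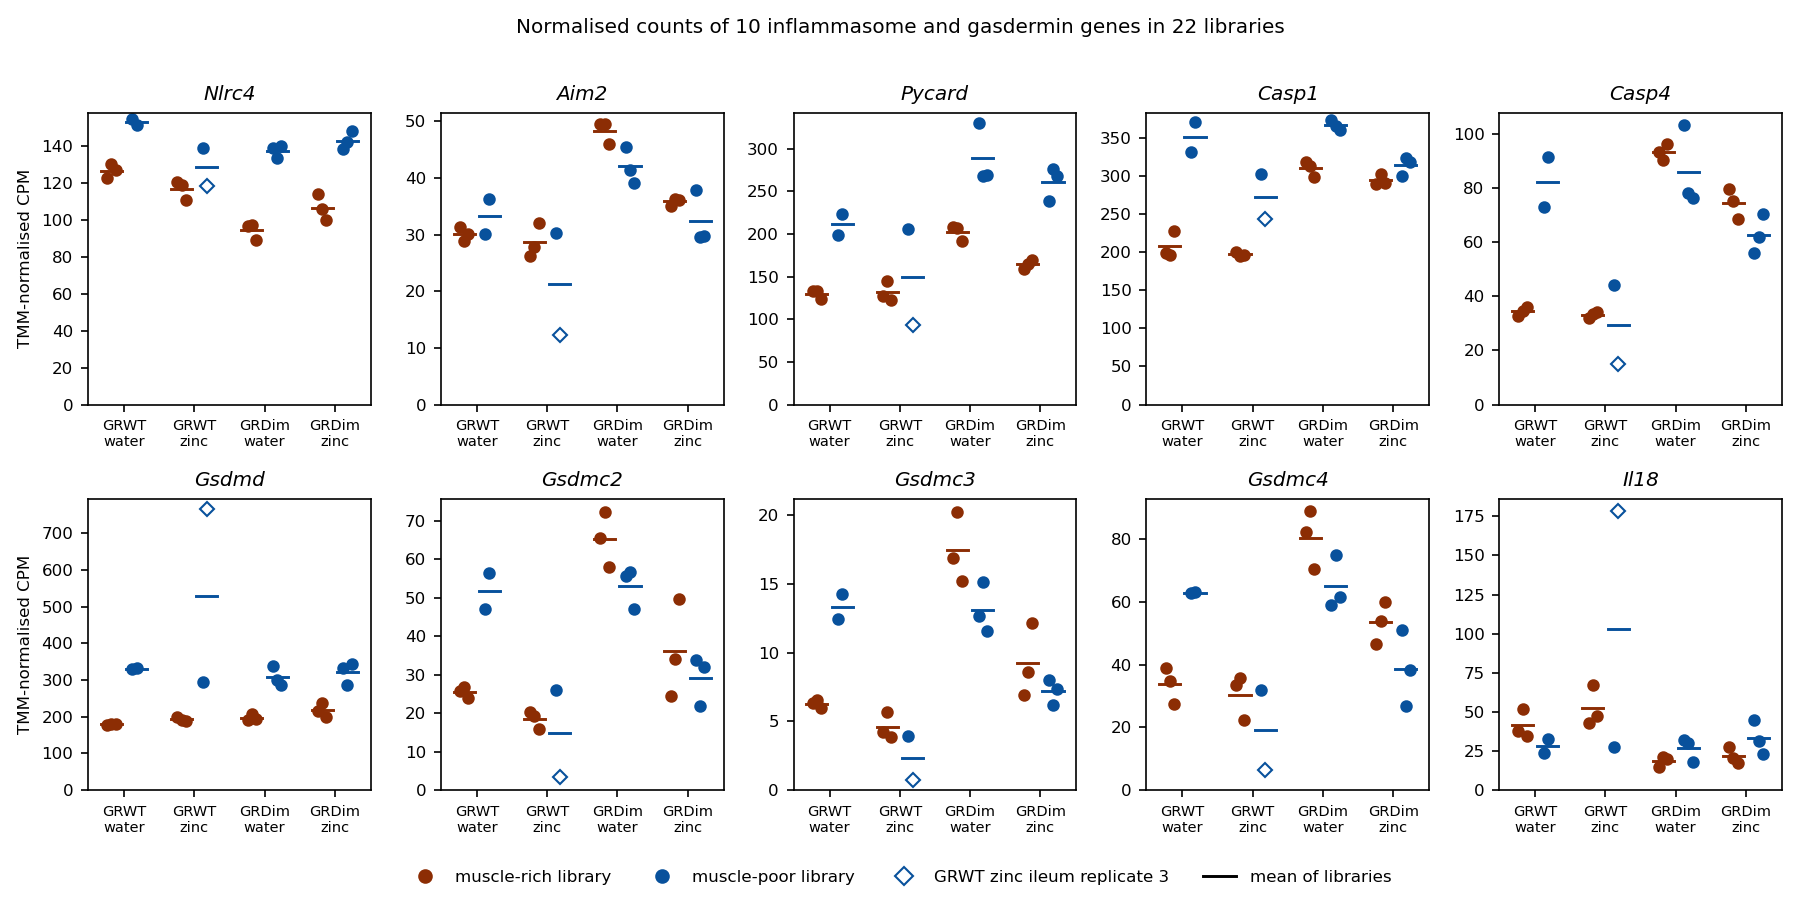
Level of each member in TMM-normalised CPM (vertical axes, one panel per gene) in every library, grouped by condition and muscle class, with 1 point per library and a bar at the group mean. Casp4 and the 3 gasdermin C genes lie high in muscle-rich GRDim libraries on water, and Gsdmd (765 CPM) and Il18 (178 CPM) reach their highest values in GRWT zinc ileum replicate 3.

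The first question of the design was how the receptor mutation changes the tissue on normal water. In the muscle-rich libraries, 7 of the 10 members were higher in GRDim than in GRWT mice and 1 was lower, at an adjusted p under 0.05. Casp4 and the 3 gasdermin C genes rose most, by 1.26 to 1.47 on the log2 scale. Casp1, Pycard and Aim2 rose by 0.58 to 0.68, and Nlrc4 fell by 0.42. Among all genes tested, 9.67% were higher and 9.79% lower by the same test, edgeR's quasi-likelihood test with Benjamini-Hochberg adjustment. With the study's fold cut-off of 0.8 as well, 4 members were higher, against 4.63% of all genes. The median log2 difference was 0.66 over the members and -0.02 over all genes. Non-overlap between the genotypes was not counted over all genes and is given below only to describe each member. At an unadjusted p under 0.05 there were 9 members, against 5404 of the 16389 genes.

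Among the sensors, Nlrc4 and Aim2 moved in opposite directions. Nlrc4 was at 123, 130.3 and 127 CPM in the muscle-rich GRWT libraries on water and at 96.6, 97.0 and 89.4 CPM in the GRDim ones. Every GRDim library lay below every GRWT library, and the difference was -0.42 (SE 0.07, adjusted p = 0.000465, edgeR). Aim2 was at 31.3, 28.8 and 30.1 CPM in GRWT and at 49.6, 49.5 and 45.9 CPM in GRDim libraries. The groups stood well apart, and Aim2 was higher by 0.68 (SE 0.19, adjusted p = 0.0190). Pycard, the adaptor, was at 133, 133 and 124 CPM in GRWT and at 208, 207 and 192 CPM in GRDim libraries. It was thus higher in each GRDim library, by 0.64 (SE 0.18, adjusted p = 0.0179).

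Of the caspases, Casp4 changed far more than Casp1. Casp4 was at 32.6, 34.5 and 35.9 CPM in GRWT and at 93.3, 90.3 and 96.1 CPM in GRDim libraries, with a narrow spread inside each genotype. The difference was 1.44 (SE 0.24, adjusted p = 0.000472). Casp1 was at 199, 197 and 228 CPM in GRWT and at 319, 314 and 299 CPM in GRDim libraries. It was higher by 0.58 (SE 0.08, adjusted p = 0.00011), with the smallest SE among the members that rose. The 2 genes are neighbours, and the sequences around their starts (RefSeq, GRCm38.p6, from 250 bases before to 50 bases after the start, plus strand) are shown because both genes rose. The first is chr9:5298267-5298566 and the second chr9:5308599-5308898, where capitals mark matches to the NF-kappaB-type motif, GGG and TTTCC with any 2 bases between, on either strand.
Casp1: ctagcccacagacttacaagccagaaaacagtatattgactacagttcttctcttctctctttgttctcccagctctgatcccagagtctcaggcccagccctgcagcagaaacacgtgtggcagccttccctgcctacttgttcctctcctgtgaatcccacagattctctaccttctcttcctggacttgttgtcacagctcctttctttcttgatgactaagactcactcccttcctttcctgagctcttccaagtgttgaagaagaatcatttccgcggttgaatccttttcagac
Casp4: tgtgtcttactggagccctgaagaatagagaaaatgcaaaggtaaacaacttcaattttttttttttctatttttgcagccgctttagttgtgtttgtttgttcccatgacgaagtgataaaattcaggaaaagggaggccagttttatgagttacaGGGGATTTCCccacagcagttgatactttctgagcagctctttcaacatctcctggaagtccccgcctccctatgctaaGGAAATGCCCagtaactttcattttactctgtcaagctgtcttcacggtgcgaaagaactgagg

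The window of Casp4 holds 2 such matches, 93 to 84 and 14 to 5 bases before the start, and that of Casp1 none. Of 32851 windows of this length in the table, 1.629% hold a match. In all, 6 motifs were searched in the 7 members with a window (Casp1, Casp4, Gsdmc3, Il18, Nlrc4, Aim2 and Pycard), and the only other match was the STAT6-type motif, TTC and GAA with any 4 bases between, in the window of Il18, as TTCCCCAGAA at 46 to 37 bases before the start. It is present in 6.953% of all windows. The remaining motifs, with no match in these 7 windows, were the interferon-type motif of GAAA and GAAA with any 2 bases between (3.443% of windows), the metal response types TGCACNC (12.59%) and TGCGCNC (15.388%), and the palindromic glucocorticoid receptor element (0.009%), each also on both strands. A match describes letters only.

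The gasdermins split by family. Gsdmd, whose cleaved fragment makes the pores of pyroptosis, was at 178, 181 and 180.0 CPM in GRWT and at 191, 208 and 194 CPM in GRDim libraries. The ranges did not overlap but lay close, and the difference of 0.14 (SE 0.20, 95% interval -0.29 to 0.57) had an adjusted p of 0.692. Gsdmc2 was at 25.9, 26.8 and 24.0 CPM in GRWT and at 65.6, 72.4 and 58.0 CPM in GRDim libraries. All GRDim values exceeded the highest GRWT value more than 2-fold, and the difference was 1.35 (SE 0.39, adjusted p = 0.0230). Gsdmc3, the lowest of these 3, was at 6.32, 6.52 and 5.98 CPM in GRWT and at 16.9, 20.2 and 15.2 CPM in GRDim libraries. It too was higher in each GRDim library, by 1.47 (SE 0.28, adjusted p = 0.00153). Gsdmc4 was at 38.8, 34.8 and 27.4 CPM in GRWT and at 82.3, 88.9 and 70.5 CPM in GRDim libraries. Here the GRWT libraries spread more, and the difference was 1.26 (SE 0.35, adjusted p = 0.0199).

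Il18, the cytokine that caspase-1 matures, had values in the other direction. It was at 37.8, 52.0 and 34.6 CPM in GRWT and at 14.7, 20.9 and 19.8 CPM in GRDim libraries. Each GRDim library lay below each GRWT library, but the difference of -1.17 (SE 0.47) had an adjusted p of 0.091. In a fit that left out GRWT zinc ileum replicate 3 the same difference was -1.16 (SE 0.30, adjusted p = 0.00855). In that fit 9 members passed, 7 higher and 2 lower, beside 17.3% of genes higher and 16.9% lower. In fits that each left out 1 of the 22 libraries, Casp1, Casp4, Gsdmc3 and Nlrc4 passed in 22 of 22, Pycard in 21, Aim2 in 20, Gsdmc4 in 19, Gsdmc2 in 17, Il18 in 2 and Gsdmd in 0. The number of members that passed was 4 without GRWT water ileum replicate 1, 5 without GRWT water IEC replicate 5, and 6 to 9 in the other fits. With the tissue label in place of the muscle class, no member passed. An additive muscle class gave 5 members, and 2 were left when a replicate block was added.

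Markers of other cells moved with this comparison. The summed CPM of 12 markers of T cells and intraepithelial lymphocytes ran from 77.9 to 119 in muscle-rich GRWT libraries on water and from 452 to 524 in GRDim ones, and 10 of the 12 were higher in GRDim by the same test, with no marker at 0. The sum of 10 macrophage markers was 162 to 212 CPM in GRWT and 260 to 284 CPM in GRDim libraries, and 3 of 10 were higher. The neutrophil markers summed to 1.17 to 1.38 and 3.19 to 3.71 CPM, with the defining genes Ly6g and Elane at 0 in all muscle-rich libraries. The sums of epithelial markers were 17279 to 17853 CPM in GRWT and 18143 to 19306 CPM in GRDim libraries, those of smooth muscle 2340 to 2564 and 1789 to 2016 CPM, and those of enteric neurons and glia 37.3 to 43.3 and 21.6 to 29.1 CPM, with 1 of 10, 1 of 10 and 2 of 10 markers lower and none higher. The tuft cell markers summed to 9.69 to 11.8 and 12.2 to 13.1 CPM, with 1 of 4 tested higher and Il25 at 0 in each of these libraries. The ileal segment genes Fabp6 and Slc10a2 summed to 7805 to 9447 CPM in GRWT and 4798 to 6108 CPM in GRDim libraries. The part of these in the members' differences was not tested, nor that of the label, since these libraries are 3 IEC for GRDim and 2 IEC and 1 ileum for GRWT.

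**Figure D2:**
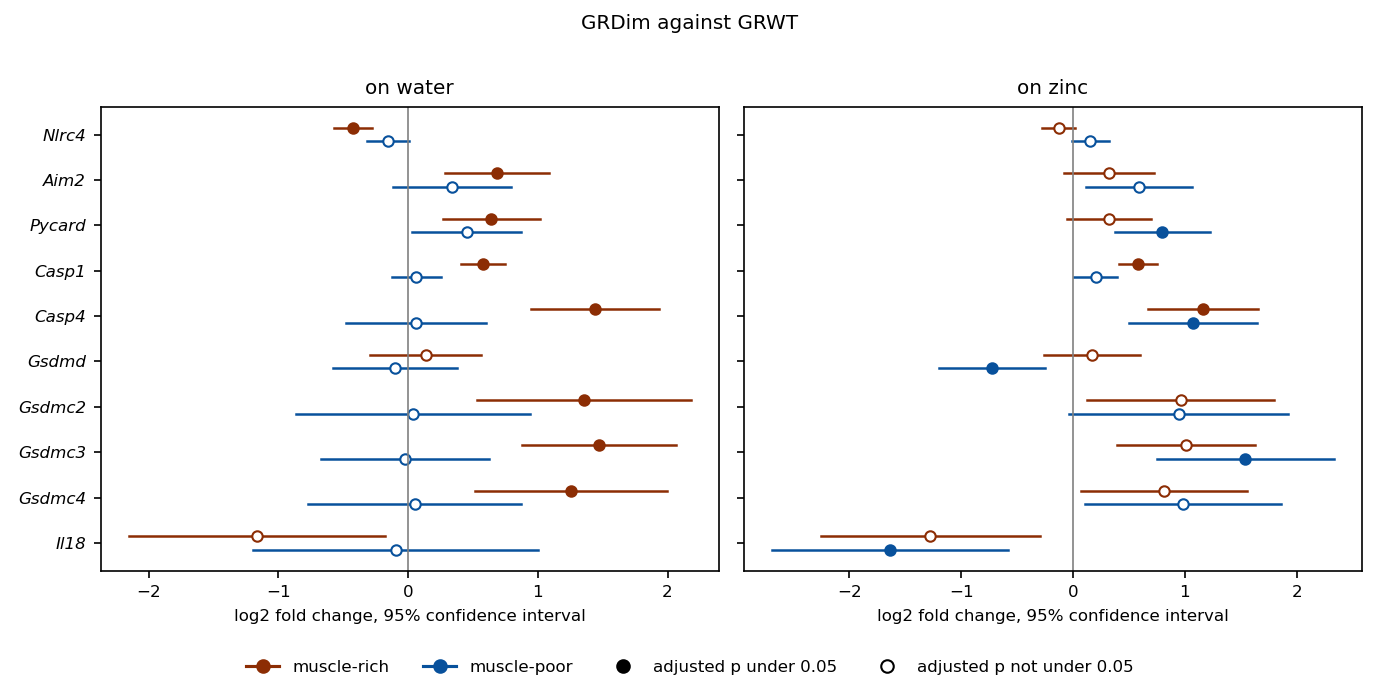
Log2 fold change of GRDim against GRWT for each member, with 95% intervals, on water and on zinc, drawn for each muscle class. On water the muscle-rich intervals of Casp4, Gsdmc2, Gsdmc3 and Gsdmc4 lie above 0 (1.26 to 1.47 at their centres), while the muscle-poor values of the same genes lie between -0.02 and 0.06.

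In the muscle-poor libraries the same genotype comparison on water gave no member past the threshold in edgeR, and 0 in DESeq2. At an unadjusted p under 0.05 there was 1 of 10, against 1794 of the 16389 genes. Among all genes 0.567% passed in either direction. Casp4 was at 73.0 and 91.5 CPM in the 2 GRWT libraries and at 103, 78.0 and 76.2 CPM in the 3 GRDim libraries. The groups overlapped around levels that only GRDim libraries reached in the muscle-rich class, and the difference was 0.06 (95% interval -0.48 to 0.60). Gsdmc2 was at 47.2 and 56.4 CPM in GRWT and at 55.6, 56.7 and 47.2 CPM in GRDim libraries, a difference of 0.04 (95% interval -0.87 to 0.94). Gsdmc3 (-0.02) and Gsdmc4 (0.05) overlapped between the genotypes as well. Casp1 was at 331 and 371 CPM in GRWT and at 374, 366 and 361 CPM in GRDim libraries, and its difference was 0.06 (95% interval -0.13 to 0.25).

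Pycard had the largest value there. It was at 199 and 224 CPM in GRWT and at 330.0, 268 and 269 CPM in GRDim libraries, without overlap, and the difference was 0.45 (SE 0.20, adjusted p = 0.407). Without GRWT zinc ileum replicate 3 it was 0.46 (adjusted p = 0.00761), and Pycard was the only member to pass, beside 1.76% of genes that were higher. The macrophage markers summed to 28.0 to 30.2 CPM in GRWT and 32.1 to 42.5 CPM in GRDim libraries there, and the ileal segment genes to 12757 to 13044 and 9555 to 10668 CPM, and their part in the result was not tested. Aim2 (0.34) and Nlrc4 (-0.15) also had no overlap between the genotypes, with adjusted p of 0.614 and 0.491. Gsdmd (-0.10) and Il18 (-0.10) overlapped.

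Whether the genotype difference itself differed between the classes was tested in the same model. On water, Casp1 alone passed in edgeR, with a GRDim effect larger by 0.51 (SE 0.12, adjusted p = 0.0440) in the muscle-rich class, and 0.793% of all genes passed in that direction. This call was kept in 8 of 22 fits that each left out 1 library. Casp4 was larger by 1.38 (adjusted p = 0.0608), Gsdmc3 by 1.497 (adjusted p = 0.0955), Gsdmc2 by 1.32 (adjusted p = 0.362) and Gsdmc4 by 1.21 (adjusted p = 0.352). Without GRWT zinc ileum replicate 3, these 5 genes all passed, at adjusted p of 0.00263 for Casp1, 6.82e-05 for Casp4, 0.000783 for Gsdmc3, 0.0164 for Gsdmc2 and 0.0285 for Gsdmc4, while 3.82% of genes did. In the muscle-poor class the T cell markers summed to 237 to 487 CPM in GRWT and 350 to 556 CPM in GRDim libraries.

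On zinc, the genotypes differed in the muscle-rich class in 2 members, both caspases and both higher in GRDim, against 2.91% of genes that were higher. By label the GRDim libraries here are 3 ileum and the GRWT ones 2 IEC and 1 ileum. Casp1 was at 201, 195 and 196 CPM in GRWT and at 290.5, 303 and 291 CPM in GRDim libraries. The groups were again far apart, by 0.58 (SE 0.08, adjusted p = 0.000333). Casp4 was at 32.1, 33.4 and 34.1 CPM in GRWT and at 79.4, 75.1 and 68.5 CPM in GRDim libraries, a difference of 1.16 (SE 0.23, adjusted p = 0.00750). With the tissue label in place of the muscle class neither passed in edgeR, at 0.46 for Casp1 (adjusted p = 0.104) and 1.12 for Casp4 (adjusted p = 0.0702). With the replicate block Casp1 alone passed.

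The other members on zinc had wider intervals. Gsdmc2 was at 20.2, 19.4 and 15.99 CPM in GRWT and at 24.5, 34.1 and 49.7 CPM in GRDim libraries, with no overlap but a broad GRDim range, and differed by 0.96 (adjusted p = 0.196). Gsdmc3 differed by 1.01 (adjusted p = 0.0579) and Gsdmc4 by 0.81 (adjusted p = 0.221), also without overlap. Il18 was at 42.8, 67.2 and 47.1 CPM in GRWT and at 27.7, 20.2 and 17.0 CPM in GRDim libraries. All GRDim values lay below all GRWT values, with an adjusted p of 0.141. Aim2 and Pycard each differed by 0.32 without overlap, while Gsdmd (0.17) and Nlrc4 (-0.13) overlapped. Without GRWT zinc ileum replicate 3, 8 members passed, the 7 that were higher on water and Il18 as lower, beside 8.28% of genes higher and 7.36% lower. Of the T cell markers 5 of 12 were higher in GRDim, summed at 72.7 to 124 CPM in GRWT and 265 to 270 CPM in GRDim libraries. The epithelial markers summed to 16272 to 18731 and 20136 to 20534 CPM, and those of enteric neurons and glia to 35.5 to 44.0 and 29.2 to 32.5 CPM. The part of these in the members' differences was not tested.

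In the muscle-poor class on zinc, 5 members passed: Pycard (0.80), Casp4 (1.07) and Gsdmc3 (1.54) higher, and Gsdmd (-0.72) and Il18 (-1.63) lower in GRDim, beside 5.75% of genes higher and 12.8% lower. The GRDim libraries here are all IEC and the GRWT ones all ileum by label, so genotype and label cannot be told apart. The calls rest on GRWT zinc ileum replicate 3. Without it no member passed in edgeR, with 3 at an unadjusted p under 0.05 and 0.207% of all genes passing in either direction, and all 10 differences were above 0. Gsdmd was then 0.15 and Il18 0.28, so both changed direction, and Pycard was 0.37, Casp4 0.54 and Gsdmc3 0.91 (adjusted p = 0.243, 0.226 and 0.225). The classes did not differ in the genotype effect on zinc for any member in edgeR, beside 2.87% of all genes. At an unadjusted p under 0.05 there were 3 members, against 3657 of the 16389 genes, and 2 passed in DESeq2. Without that library the class difference of Casp1 was 0.48. Without replicate 2 in its place, replicate 3 alone stands for its group. More members passed then in the muscle-poor class and for the class difference. The share of all genes is not given, so this is no result about these members. The macrophage markers summed to 20.6 to 23.0 CPM in muscle-poor GRWT and 24.8 to 26.9 CPM in GRDim libraries on zinc, and the epithelial ones to 25117 to 25342 and 25847 to 29672 CPM, and their part in the result was not tested.

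The second question was what zinc changes in each genotype. In muscle-rich GRWT libraries no member passed in edgeR, none had an unadjusted p under 0.05, and DESeq2 gave 0 as well, while 0.0854% of all genes passed (0.35% without GRWT zinc ileum replicate 3, again with 0 members). Gsdmc2 lay between 24.0 and 26.8 CPM on water and between 15.99 and 20.2 CPM on zinc, without overlap, but the difference of -0.46 had a 95% interval of -1.30 to 0.38. Gsdmc3 had the same value of -0.46, with no overlap either. Nlrc4 (-0.12) and Gsdmd (0.10) did not overlap, and the rest did. Non-overlap was not counted over all genes, so it only describes these members. Of the 16389 genes, 785 had an unadjusted p under 0.05 in this comparison. Casp4 stayed at 32.1 to 35.9 CPM over these 6 libraries, with a difference of -0.05 (95% interval -0.54 to 0.45).

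In the muscle-poor GRWT libraries zinc went with lower levels of 5 members, against 2.36% of all genes. Gsdmc3 was at 12.4 and 14.2 CPM on water and at 3.90 and 0.745 CPM on zinc, and Casp4 was at 73.0 and 91.5 CPM on water and at 44.1 and 14.8 CPM on zinc. In both genes the lower zinc value is that of replicate 3, but replicate 2 also lay below both water libraries. The changes were -2.43 for Gsdmc3 (SE 0.39, adjusted p = 0.00567), -1.46 for Casp4 (adjusted p = 0.0115), -1.77 for Gsdmc2 (adjusted p = 0.0348), -1.69 for Gsdmc4 (adjusted p = 0.0274) and -0.36 for Casp1 (adjusted p = 0.0297). Without replicate 3, Gsdmc3 (-1.80, adjusted p = 0.00661) and Casp4 (-0.93, adjusted p = 0.0337) passed, beside 0.196% of genes, while Gsdmc2 was -1.02 (adjusted p = 0.217), Gsdmc4 -1.005 (adjusted p = 0.233) and Casp1 -0.24 (adjusted p = 0.346). No member passed for this comparison with an additive muscle class (with all libraries or without replicate 3), with the tissue label, with the replicate block, or with muscle-poor libraries alone. The T cell markers summed to 237 to 487 CPM on water and 167 to 516 CPM on zinc there. Other lists had sums that did not overlap between water and zinc. Those of macrophages were at 28.0 to 30.2 and 20.6 to 23.0 CPM, and of epithelium at 26868 to 27698 and 25117 to 25342 CPM. Those of enteric neurons and glia were at 3.22 to 3.94 and 8.33 to 37.0 CPM, and the ileal segment genes at 12757 to 13044 and 24.2 to 11673 CPM. The 9 genes of the type 2 response list were at 5556 to 5907 and 3156 to 5338 CPM. The part of these markers in the result was not tested. Gsdmd and Il18 in replicate 3, at 765 and 178 CPM, were far above replicate 2, at 295 and 27.8 CPM. No member passed without GRWT water ileum replicate 3, and 2 did without GRWT water ileum replicate 2. The zinc differences of Gsdmd and Il18, 0.68 and 1.85 (adjusted p = 0.0861 and 0.0502), became -0.19 and -0.07 without zinc replicate 3. Those of Aim2 (-0.63), Pycard (-0.49) and Nlrc4 (-0.25), with adjusted p of 0.101, 0.145 and 0.0663, became -0.17, -0.07 and -0.17. No member's zinc effect differed between the classes in GRWT mice by edgeR, where 0.0183% of all genes passed. At an unadjusted p under 0.05 there were 4, against 2779 of the 16389 genes, and DESeq2 gave 2. Without zinc replicate 2, replicate 3 is the only muscle-poor GRWT library on zinc. More members passed then for that class difference and for zinc in the muscle-poor class. The share of all genes is not given, so this is no result about these members.

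**Figure D3:**
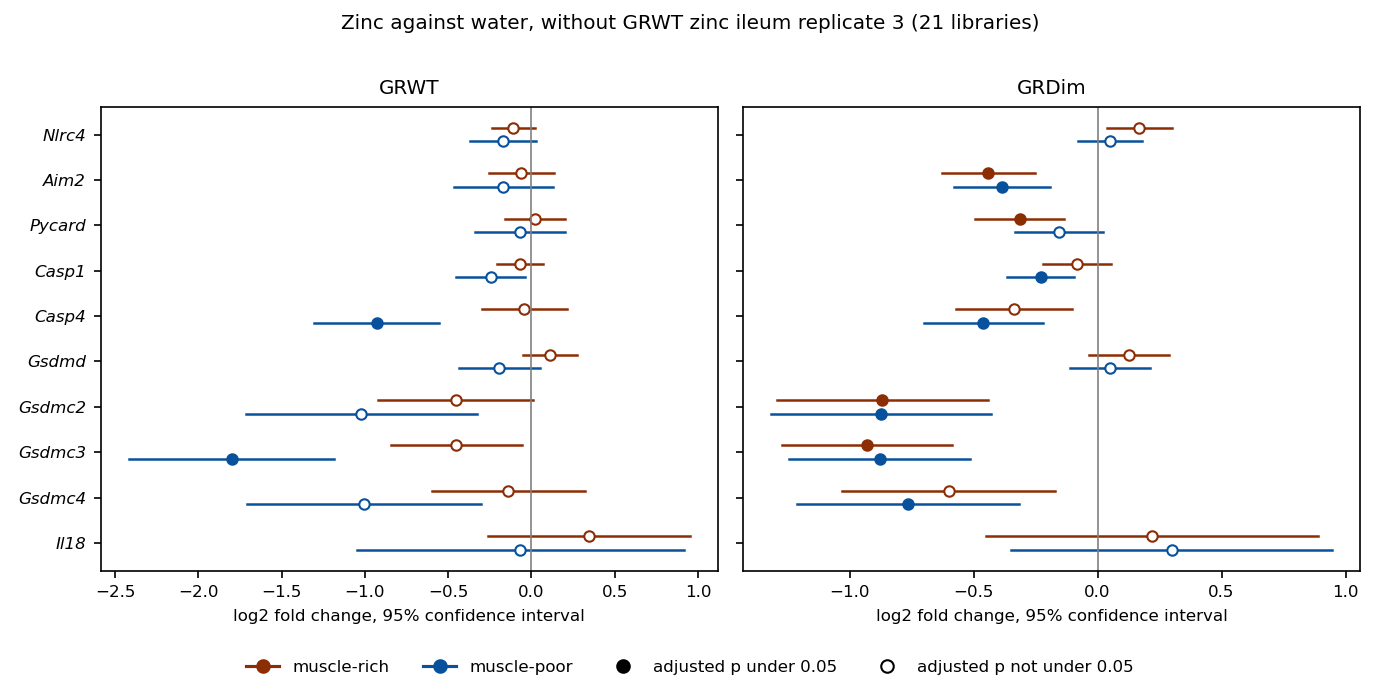
Log2 fold change of zinc against water for each member, with 95% intervals, in GRWT and GRDim mice and in both muscle classes, fitted without GRWT zinc ileum replicate 3. The values of Aim2, Casp1, Casp4, Gsdmc2, Gsdmc3 and Gsdmc4 are below 0 in all 4 comparisons, from -0.04 to -0.93 for Casp4 and from -0.45 to -1.80 for Gsdmc3.

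In GRDim mice no member passed for zinc in either class when all libraries were fitted, where 0.397% of all genes passed among muscle-rich libraries and 1.27% among muscle-poor ones. At an unadjusted p under 0.05 there were 4 members in each class, against 1630 and 2274 of the 16389 genes. DESeq2 gave 1 and 2 members, for which no share of all genes is given. Gsdmc2 went from 65.6, 72.4 and 58.0 CPM on water to 24.5, 34.1 and 49.7 CPM on zinc in the muscle-rich class, and from 55.6, 56.7 and 47.2 to 33.8, 21.9 and 32.0 CPM in the muscle-poor class. Water and zinc libraries did not overlap in either class. The log2 fold changes of Gsdmc3 were -0.92 (adjusted p = 0.175) and -0.87 (adjusted p = 0.147), those of Gsdmc4 were -0.59 and -0.75, and neither gene overlapped. Casp4 went from 90.3 to 96.1 CPM on water to 68.5 to 79.4 CPM on zinc in the muscle-rich class, and from 76.2 to 103 to 55.9 to 70.2 CPM in the muscle-poor class. Its differences were -0.33 and -0.45, with adjusted p of 0.705 and 0.403. Gsdmd (0.14 and 0.06) and Il18 (0.23 and 0.31) overlapped between water and zinc in both classes.

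Without GRWT zinc ileum replicate 3, 4 members fell with zinc in the muscle-rich GRDim libraries, against 1.99% of genes. They were Aim2 (-0.44, adjusted p = 0.00622), Pycard (-0.31, adjusted p = 0.0338), Gsdmc2 (-0.87, adjusted p = 0.0213) and Gsdmc3 (-0.93, adjusted p = 0.00258). Among muscle-poor GRDim libraries 6 fell, against 4.3% of genes. These were Aim2 (-0.38), Casp1 (-0.23), Casp4 (-0.46), Gsdmc2 (-0.87), Gsdmc3 (-0.88, adjusted p = 0.00384) and Gsdmc4 (-0.77). The same counts of 4 and 6 came when GRWT zinc ileum replicate 2 was left out in place of replicate 3. Zinc and tissue label cannot be told apart in these comparisons, as given above. The summed T cell markers, of which 0 of 12 passed for zinc in either class, went from 452 to 524 CPM on water to 265 to 270 CPM on zinc in the muscle-rich GRDim libraries and from 350 to 556 to 208 to 321 CPM in the muscle-poor ones. The macrophage markers summed to 260 to 284 CPM on water and 194 to 251 CPM on zinc in the muscle-rich class and to 32.1 to 42.5 and 24.8 to 26.9 CPM in the other. In the muscle-rich class the tuft cell markers went from 12.2 to 13.1 CPM on water to 8.46 to 10.5 CPM on zinc, and the epithelial markers from 18143 to 19306 CPM to 20136 to 20534 CPM. The tuft cell markers went from 3.81 to 7.64 CPM to 3.10 to 3.58 CPM in the muscle-poor class. Those of enteric neurons and glia had higher sums on zinc, at 29.2 to 32.5 CPM after 21.6 to 29.1 CPM on water in the muscle-rich class and 6.31 to 12.4 CPM after 3.11 to 4.24 CPM in the other. The part of these markers in the result was not tested. The classes did not differ in the zinc effect in GRDim mice (0 members, 0 at an unadjusted p under 0.05, 0 in DESeq2, 0% of all genes).

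The difference of the zinc effect between genotypes, which asks whether zinc acts on these genes in the same way in GRWT and GRDim mice, was not past the threshold for any member. In the muscle-rich class 1 member had an unadjusted p under 0.05 and DESeq2 gave 0, with 0.0061% of all genes passing (0.0237% without GRWT zinc ileum replicate 3). That member was Nlrc4, and 1017 of the 16389 genes had such a p. Zinc moved Nlrc4 by -0.12 in GRWT and 0.18 in GRDim libraries, a difference of 0.29 (95% interval 0.09 to 0.50, adjusted p = 0.732, edgeR). For Gsdmc2 the interaction was -0.39 (95% interval -1.56 to 0.77) and for Casp4 -0.28 (95% interval -0.97 to 0.41), so sizeable differences in either direction remain within the intervals. In the muscle-poor class 3 members had an unadjusted p under 0.05, against 2284 of the 16389 genes, and DESeq2 gave 1 member. There 0% of all genes passed in edgeR. Without GRWT zinc ileum replicate 2, replicate 3 alone stands for its group. Members passed then, but the share of all genes is not given, so this is no result about them. With all libraries Gsdmc3 had 1.56 (adjusted p = 0.274) and Casp4 1.01 (adjusted p = 0.277), which without replicate 3 were 0.92 (adjusted p = 0.85) and 0.47 (adjusted p = 0.893).

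The other genes of the pathway were taken as lists of 43 genes, of which 37 were tested. On water in the muscle-rich class 11 were higher in GRDim and 2 lower, against 9.67% and 9.79% of all genes (15 and 5 without GRWT zinc ileum replicate 3, against 17.3% and 16.9%), and in the muscle-poor class none passed (without that library Naip5 alone did, at -0.38). The 5 that rose most were Il18bp (3.47, adjusted p = 1.3e-07), the decoy that binds interleukin-18, Nlrp10 (2.56), an NLR family member, Gbp2 (1.49), a GTPase that gathers on bacteria, Irf8 (1.47), an interferon regulatory factor, and Gbp5 (1.30), a GTPase related to Gbp2. Il18bp had a mean of 5.66 ± 0.798 CPM (SD, n = 3) in GRWT and 63.0 ± 3.22 CPM (SD, n = 3) in GRDim libraries. Il18 and its decoy thus had values in opposite directions in the same libraries. The 2 lower genes were Nlrp9b (-1.39), a sensor of viral RNA in enterocytes, and Naip5 (-0.46), a flagellin receptor that works with NLRC4.

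By group, 5 of 7 tested interferon-inducible regulators were higher (Gbp2, Irf8, Gbp5, Irf1 and Gbp3), both ion channels (P2rx7 and Panx1), 3 of 14 other sensors and their partners, 1 of 9 other cytokines and receptors, 0 of 3 other gasdermins and membrane rupture genes, and 0 of 2 other caspases (Casp8 0.16 and Casp12 0.43). In the fit that left out GRWT zinc ileum replicate 3, 4 of 9 cytokines and receptors were higher (Il18bp, Il1b, Il18rap and Il18r1) and so was Casp12 (0.43, adjusted p = 0.00963, edgeR), while Gsdma (-1.05) and Gsdme (-0.93) were lower among the gasdermins. In that fit 3 of the 14 other sensors were higher and 3 lower, and the counts of the interferon-inducible regulators and ion channels were as before. Of the 9 genes of the type 2 response list 5 were tested. Sprr2a3 (2.61) and Il4ra (0.41), a receptor chain for interleukins 4 and 13, were higher and the goblet cell gene Clca1 (-0.52) was lower. The 9 genes summed to 4174 to 4420 CPM in muscle-rich GRWT libraries on water and 3490 to 3895 CPM in GRDim ones. On zinc in the muscle-rich class 5 of the 37 were higher in GRDim and none was lower, against 2.91% of all genes that were higher (7 and 2 without that library, against 8.28% and 7.36%), namely Il18bp (2.44), Irf8 (1.06), Irf1 (1.04), P2rx7 (0.92) and Panx1 (0.45). On zinc in the muscle-poor class 4 were higher, against 5.75% of all genes: Naip1 (0.93), Il18bp (0.93), Irf8 (0.51) and Dpp9 (0.35). There 3 were lower, against 12.8% of all genes: Il33 (-4.56), Il1r1 (-2.79) and Irf2 (-0.71). These calls rest on that library.

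On zinc against water, 1 of the 37 was lower in muscle-rich GRDim libraries, Il18bp (-1.20, adjusted p = 0.0250), and 4 were lower in muscle-poor GRDim libraries, Gbp2 (-2.10), Il18bp (-1.58, adjusted p = 0.0014), Gbp3 (-1.41) and Irf8 (-0.82), with none higher, against 0.397% and 1.27% of all genes in either direction. Without GRWT zinc ileum replicate 3 these counts were 5 lower and 1 higher, and 10 lower and 2 higher. Of all genes, 1.99% were then lower and 3.94% higher in the muscle-rich class, and 4.3% lower and 4.3% higher in the muscle-poor class. In muscle-rich GRWT libraries none passed. In muscle-poor GRWT libraries 4 were lower, Il18bp (-2.20), Gbp2 (-2.06), Naip6 (-1.04) and Irf8 (-0.83), against 2.36% of all genes, and 2 were higher, Il33 (4.10) and Nlrp9b (0.86), against 7.71% of all genes. Without that library Il18bp (-1.89) and Naip6 (-0.74) were lower, against 0.196% of genes, and none was higher. The interaction of zinc and genotype passed for none of the 37 in either class.

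**Figure D4:**
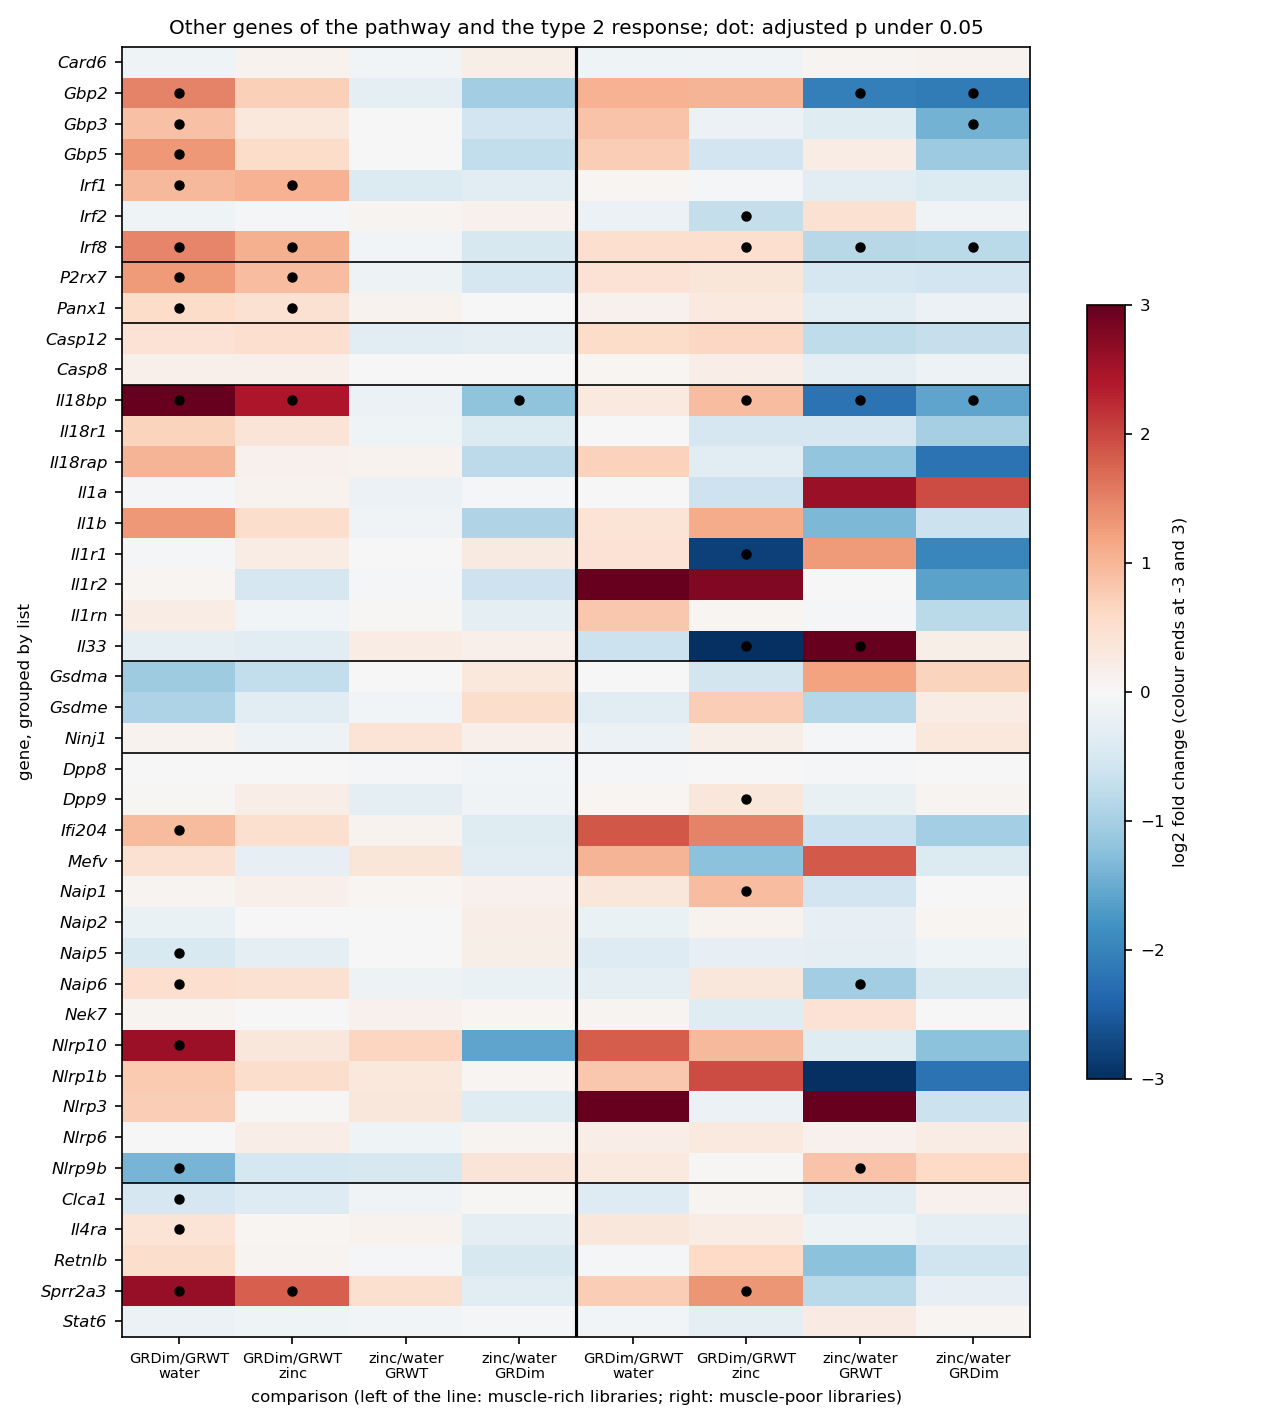
Log2 fold change, as colour that ends at -3 and 3, of the tested genes of the pathway lists and of the type 2 response list (vertical axis, grouped by list) in 8 comparisons (horizontal axis), with muscle-rich libraries left and muscle-poor ones right of the thick line and a dot where the adjusted p is under 0.05. In the first column, GRDim against GRWT on water in muscle-rich libraries, Il18bp (3.47), Sprr2a3 (2.61) and Nlrp10 (2.56) have the highest values with a dot.

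The genes whose pattern over the 22 libraries was most like each member were sought by Pearson's r of log2(CPM + 1) after the mean of each muscle class was subtracted. These correlations are descriptions over libraries that share conditions and depth. For each gasdermin C gene the gene with the highest r was another of the family, with r of 0.976 for Gsdmc2 with Gsdmc3 and with Gsdmc4 and 0.963 for Gsdmc3 with Gsdmc4. Among the 3 genes most like each were also Jpt2 for Gsdmc2 (0.967), Tmco3 for Gsdmc3 (0.965) and Mmab for Gsdmc4 (0.972). Casp4 was most like Cd177 (0.982), Ceacam10 (0.978) and Duox2 (0.967), an epithelial oxidase, and Casp1 most like Upp1 (0.983), Tapbpl (0.967) and the interferon-inducible GTPase gene Ifi47 (0.964). Aim2 was most like Dbf4 (0.982), Tlr1 (0.968) and Ran (0.967), and Pycard most like H2afx (0.972), Pde8b (0.972) and Eif4a1 (0.9701). Nlrc4 was most like Sbk1 (0.930), the epithelial adhesion gene Epcam (0.925) and Zdhhc19 (0.907), and Il18 most like Dnm1 (0.938), Atp7b (0.929) and Tymp (0.926).

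For Gsdmd the likeness rested on GRWT zinc ileum replicate 3. Its r of 0.960 with Mdh1, 0.949 with Cyp2c29 and 0.949 with Btnl7-ps became 0.671, 0.558 and 0.660 over the other 21 libraries. For the other 9 members the r of the genes named stayed at 0.853 or above without it. Among the members themselves, Casp4 had r of 0.926 with Casp1, 0.902 with Gsdmc2 and -0.864 with Il18 over the 22 libraries.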

How the data were processed

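The members, the pathway lists and the marker lists were chosen with earlier results of these data known. Total RNA of 22 libraries was made into stranded single-end libraries by the authors. Per the labels and the study's methods, reads were trimmed with Trimmomatic, mapped to mm10 with HISAT2 2.0.4 and counted per gene with featureCounts, leaving out multimapping reads; the annotation release and strand setting are not given in the sources used here. The deposited table holds raw counts of 54838 genes without normalization, of which 54809 identifiers were found in GENCODE vM21. Reads carry no molecular identifiers, so floors of 3 counts cover counting error only. Because 2 columns of GRDim ileum on water have the same name, these libraries are unnumbered.

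Counts were tested with edgeR 4.0.16 in R 4.3.3, with TMM normalization, filterByExpr, robust quasi-likelihood fits and 1 mean for each condition and muscle class over all 22 libraries. P-values were adjusted by Benjamini-Hochberg over all genes, and a gene passed at an adjusted p under 0.05. CPM are TMM-normalised. The muscle class replaced the tissue label because the rule for these genes keeps the classes apart. The alternatives were DESeq2 1.42.0, other scalings, no filter, other covariates, fewer libraries, a replicate block and leaving out each library; a fit without GRWT zinc ileum replicate 3 and with an additive class was added after seeing the data. All 10 members enter every comparison and count, and a member not named in one had no adjusted p under 0.05 there with all libraries. Of the pathway lists, up to 5 genes past the threshold with all libraries are named by size per direction and comparison, and others where a count is given. The 3 most similar genes per member had to have a proper name. Some genes were left out of the lists before counting, whatever their values, and are not reported here. No library pair agreed within sampling noise.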

Additional observations from a re-analysis of the deposited data

Results flagged for a closer look

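In GRWT mice on zinc, Gsdmd was at 765 CPM in ileum replicate 3, a muscle-poor library, against 188 to 295 CPM in the other 4 of that condition. The 3 muscle-rich ones were at 188 to 200 CPM and the other muscle-poor one at 295 CPM. Replicate 3 was far from the others relative to their range. In the same library Il18 was at 178 CPM, against 27.8 to 67.2 CPM in the others, and it stood out in the same way. For Il18 the muscle-rich ones were at 42.8 to 67.2 CPM and the other muscle-poor one at 27.8 CPM. Of 40 groups of values examined for such a library, chance gives about 1 in 20. The flags here are not more than that, and both come from the same library. This is the library with Fabp6 at 18.2 CPM, and the part of that in both values was not tested.

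The genotype difference of Casp1 on water was larger in the muscle-rich than in the muscle-poor libraries by 0.51 on the log2 scale (adjusted p = 0.0440, edgeR), a difference between groups under the same contrast. The call was kept in 8 of 22 fits that each left out 1 library.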

How the results depend on the processing

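The muscle-rich genotype effect on water gave 8 members past the threshold, and with 1 library left out 4 to 9. The other counts under leaving out 1 library were 0 to 1 on water in the muscle-poor class (class difference 0 to 5), 0 to 10 on zinc in the muscle-poor and 2 to 8 in the muscle-rich class (class difference 0 to 8), 0 to 10 and 0 to 0 for the interaction (muscle-poor, muscle-rich), 0 to 6 and 0 to 4 for zinc in GRDim, and 0 to 10 and 0 to 0 for zinc in GRWT (class difference 0 to 9, and 0 to 0 in GRDim). The highest of these counts came without GRWT zinc ileum replicate 2 or 3, the muscle-poor pair that differs most. The share of all genes in each of these fits is not given, so the counts do not single out these members.

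DESeq2 gave 3 members for the class difference on water, 2 for that on zinc, 1 for the muscle-poor interaction, 2 and 1 for zinc in GRDim (muscle-poor, muscle-rich), 8 for zinc in muscle-poor GRWT and 2 for its class difference. DESeq2 size factors gave 2 and 1 for the class differences on water and zinc. Library totals gave 0 for the class difference on water and 3 for zinc in muscle-poor GRWT, and no filter gave 0, 2 for the latter and 3 for the genotype on zinc in the muscle-poor class. An additive muscle class gave 5 members on water and 5 for the genotype on zinc in the muscle-rich class, and 0 for zinc in muscle-poor GRWT. The tissue label gave 0 for each of these and for the genotype on zinc in the muscle-poor class. Libraries of the same class alone gave 8 (muscle-rich) and 0 (muscle-poor) for the genotype on zinc, 5 for zinc in muscle-rich GRDim and 0 for zinc in muscle-poor GRWT. The additive class without GRWT zinc ileum replicate 3 gave 8 on water in the muscle-poor class, 4 for the genotype on zinc in the muscle-rich class, 4 and 4 for zinc in GRDim and 0 for zinc in muscle-poor GRWT. The cause of these shifts was not tested. No share of all genes stands beside the counts of these settings, so they show how the settings differ and not a trait of these members.

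Same-numbered libraries did not pair: over 25 pairs the correlation of deviations had a median of -0.02, and 1 pair was over 0.1. With the replicate block and an additive class, 2 members passed on water in either class, 1 for the genotype on zinc in either class and 0 for zinc in muscle-poor GRWT. In that blocked fit Gsdmc3 (1.02) and Gsdmd (0.20) turned positive for the muscle-poor genotype effect on water, Nlrc4 was -0.011 for that on zinc, and Gsdmd was -0.16 for the muscle-rich one. Gsdmd was -0.058 for zinc in GRDim in both classes and Pycard -0.21 for zinc in muscle-rich GRWT.

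The values that changed sign elsewhere were those of members whose difference lay near 0 or rested on that library. For the muscle-poor genotype effect on water, Gsdmc3 was 0.068 with library totals, 0.74 with the additive class, 0.74 with the tissue label and 0.77 with the additive class without that library, and Gsdmd was 0.023, 0.11 and 0.042 in the last 3. For the genotype on zinc, Nlrc4 was -0.014 (additive class) and -0.080 (additive class without that library) in the muscle-poor and 0.055 (tissue label) in the muscle-rich class. Gsdmd was 0.13 in the muscle-poor class (additive class without that library), and -0.24 and -0.14 in the muscle-rich class (additive class, tissue label). Pycard was -0.18, -0.22 and -0.012 for zinc in muscle-rich GRWT (additive class, tissue label, additive class without that library). With 1 library left out, the muscle-poor values on water ran from -0.014 to 0.15 for Casp1, -0.094 to 0.23 for Casp4, -0.30 to 0.15 for Il18, -0.082 (-0.011 without unnumbered library a) to 0.17 for Gsdmc2, -0.14 (-0.12 without GRWT water ileum replicate 2) to 0.078 (0.059 without unnumbered library b) for Gsdmc3 and -0.062 to 0.11 for Gsdmc4. Those on zinc ran from -2.43 to 0.28 for Il18 and -1.25 to 0.15 for Gsdmd. Zinc in muscle-poor GRWT ran from -0.067 to 2.64 for Il18 and -0.19 to 1.21 for Gsdmd, and in muscle-rich GRWT from -0.063 to 0.059 for Pycard and -0.27 to 0.026 for Gsdmc4.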
